A study of Mus musculus with 15 samples.

Results

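Regulatory T (Treg) cells that lacked DOCK8 were compared after culture with anti-CD3+CD28 beads and after culture without stimulus. The comparison was defined by the sample labels alone and held 8 of the series' 15 libraries, 6 unstimulated and 2 with beads. All cells were taken from female Foxp3YFP-Cre/+ Dock8flox/flox mice on the C57BL/6 background, from lymph nodes and spleen. Cells were sorted as CD25+CD39+ (CD3+ in the growth protocol, CD4+ in the design text), and YFP+ cells formed the DOCK8-deficient group while YFP- cells formed the WT group. Every group was cultured for 16 hours in complete medium, alone or with 1 bead per cell, and RNA was read by Smart-Seq2. The Cre sits in the X-linked Foxp3 gene, so in these heterozygous females only Treg cells that use the Cre-bearing X chromosome recombine Dock8, and both genotypes share the same kind of host. YFP- cells do not express the Foxp3 reporter, so the sort placed them among Treg cells by the surface gate alone. Their Foxp3 RNA level is given below. The design text calls the 6 unstimulated samples independent and does not use that word for the 2 bead samples. Neither it nor the labels tie a library to a mouse, so p-values measure the spread between these libraries. The other 7 libraries, 4 unstimulated and 3 with beads, hold the WT cells and are used here for the spread between replicates and for a single comparison of the responses.

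Anti-CD3 and anti-CD28 antibodies on a bead engage the T cell receptor and its costimulatory partner. Calcium entry, ERK and NF-kB signalling then switch on immediate early genes, MYC and mTORC1 raise protein synthesis and metabolism, and the interleukin-2 receptor and its transcription factor STAT5 sustain growth. Treg cells, which restrain other lymphocytes and depend on the transcription factor Foxp3, also raise receptors such as CTLA-4, OX40 and GITR when activated. DOCK8 is an exchange factor for the GTPase CDC42 that shapes cortical actin during migration and at the immune synapse.

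The libraries of the DOCK8-deficient groups differed in composition. Expression was deposited as TPM, a length-normalised share of each library's transcripts that keeps no sequencing depth, so the precision of single values is known only from the replicates. The unstimulated tables listed 36904 genes and those of the bead libraries listed 31785, so the processing before deposit may have differed between them, which cannot be told apart from the beads. Only the 30949 genes in both were used. Repeat-derived predicted genes, 11 in number, took 22.4% to 45.1% of TPM in the unstimulated libraries and 15.7% and 10.1% in bead libraries 4 and 5 (mean difference -21.5 percentage points, two-sided exact permutation test p = 0.0357, the smallest that 28 assignments allow). Summed TPM of 1138 genes that T cells do not use, such as olfactory and taste receptors, was 1612 to 2528 without beads and 1058 and 1018 with them. The scale factor, the median ratio of 815 abundant genes to their geometric mean, was 0.675 to 1.06 without beads and 1.19 and 1.14 with them (difference 0.319, exact permutation p = 0.0357). The part of these shifts in the gene results was not tested, and the main counts below are also given after scaling.

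**Figure D1:**
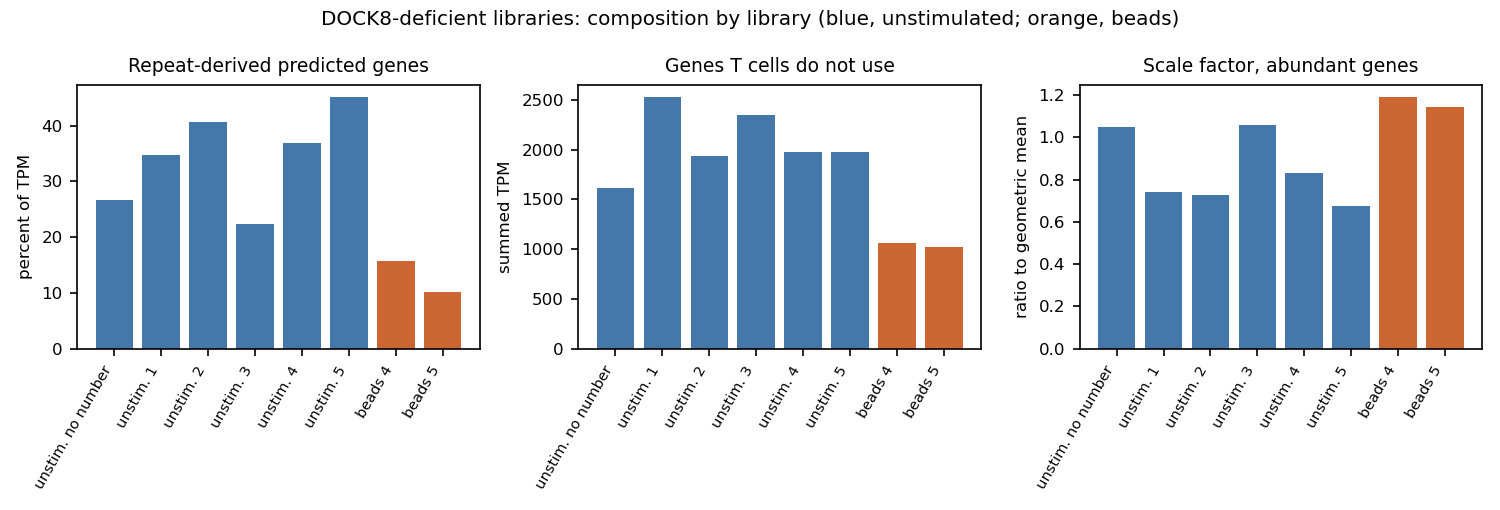
Composition of the 8 DOCK8-deficient libraries, with the percent of TPM in repeat-derived predicted genes (left), the summed TPM of genes T cells do not use (middle) and the scale factor from abundant genes as a ratio (right). Each bar is 1 library, blue unstimulated and orange with beads, and the 2 bead libraries, at 15.7% and 10.1% of repeat-derived genes, lie outside the unstimulated range in all 3 panels.

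The bead response spanned many genes, and more were called higher than lower in the values as deposited. Each gene was tested on log2(TPM + 1) with limma over all 15 libraries, and a gene was called at a Benjamini-Hochberg adjusted p under 0.05. Folds on this scale understate the change of weakly expressed genes. Of 29989 genes tested, 1785 were called higher with beads (5.95%) and 646 lower (2.15%). Of the genes called higher, 1687 were protein coding and 1273 were also called higher after scaling to abundant genes. Among genes called lower, 255 were protein coding and 414 were predicted, RIKEN, microRNA or pseudogene entries or had no symbol. All 646 stayed called lower after scaling. Among the 5262 genes averaging 20 TPM or more in either group, 1537 were called higher (29.2%) and 346 lower. List counts stand beside this share. A gene can enter that set through its bead level alone, which can raise the share, and the lists have no such filter. The 5.95% of all tested genes is the other reference. Both bead libraries lay wholly above or wholly below the 6 unstimulated ones for 6785 genes, 22.6% of those tested. These included 1775 of the 1785 genes called higher and 635 of the 646 called lower. Lack of overlap was also a rule for naming some genes, so where it is stated below it adds no support to a call.

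The split between directions depended on the scaling. The median difference of all tested genes was -0.22 (log2) as deposited and -0.46 after scaling to abundant genes, where 1274 genes were called higher (4.25%) and 1835 lower (6.12%). Scaling to 478 abundant named protein-coding genes, chosen after the data were seen, moved that median to -0.81, with 607 genes called higher (2.02%) and 4546 lower (15.2%). Scaling to the genes T cells do not use moved it the other way, to 0.29, with 3915 called higher and 60 lower. Quantile normalization gave 1361 higher and 876 lower, leaving out the repeat-derived genes gave 1341 and 1747, and a pseudocount of 5 gave 1996 and 560. Across 6 scalings, 606 genes were called higher in every one and 57 lower. Genes of at least 20 TPM had a median of 0.82 as deposited, 0.37 after scaling and -0.31 after scaling to named protein-coding genes. Each bead library mattered for the calls: without bead library 4, 555 genes were called higher and 59 lower, and without bead library 5, 325 and 55. In those fits the lone bead library is assumed to vary like the other groups. The bead libraries correlated at r = 0.874 with each other over tested genes, and at 0.686 to 0.796 with the unstimulated ones. Unstimulated libraries correlated at 0.706 to 0.784 among themselves, so no closer than with the bead libraries.

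**Figure D2:**
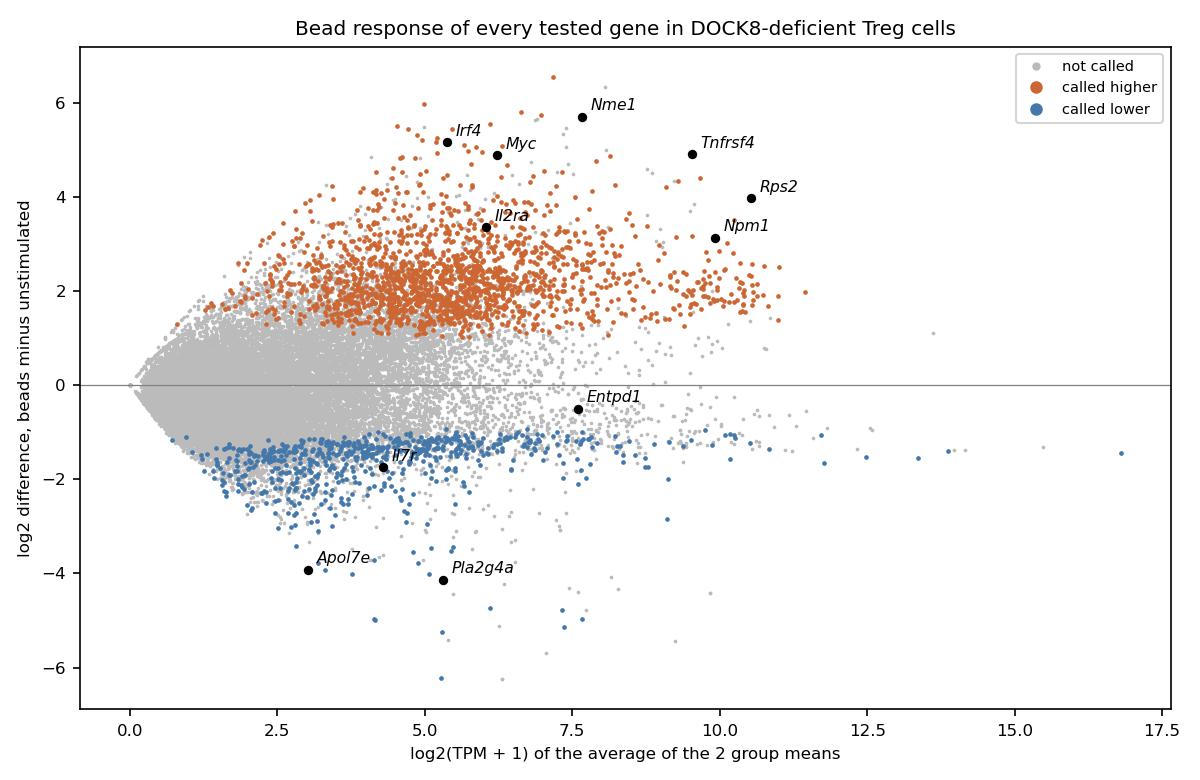
Log2 difference, beads minus unstimulated, of every tested gene in DOCK8-deficient cells (vertical axis) against log2(TPM + 1) of the average of the group means (horizontal axis). Genes called higher (orange, 1785) lie mainly at middle and high levels. Among the genes called lower (blue, 646) 24 fell by over 3.

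Dock8 itself and the sort markers come first. Dock8 (chr19:24999534-25202432, GRCm38, plus strand) was listed at 6.70 to 11.9 TPM in the unstimulated DOCK8-deficient libraries and at 7.90 and 5.82 TPM with beads (log2 difference -0.28 ± 0.34, SE, adjusted p = 0.699). WT libraries held 9.15 to 22.0 TPM without beads, so the ranges overlapped. A TPM over the whole gene does not separate the deleted exons from the rest, so it is no check of the deletion. Entpd1, which encodes the sort marker CD39, stood at 167 to 337 TPM (median 212) without beads and 150 and 165 TPM with them, just under the lowest unstimulated value, and was not called (-0.50 ± 0.32, adjusted p = 0.404). Both differences turned positive when scaled to the genes T cells do not use. Scaled to named protein-coding genes, both were called lower (Dock8 -1.32, limma adjusted p = 0.0114, and Entpd1 -1.68, adjusted p = 0.0155). Entpd1 was also called lower over genes of at least 20 TPM scaled to abundant genes (-0.98, adjusted p = 0.0346). Foxp3 (chrX:7573644-7595245, plus strand) rose from 6.29 to 26.0 TPM (median 11.9) to 42.2 and 42.7 TPM, with no overlap (1.72 ± 0.40, adjusted p = 0.0137). That call was lost without bead library 4 (adjusted p = 0.131), without bead library 5 (0.155) and after scaling to named protein-coding genes (0.59, adjusted p = 0.218). WT libraries held 29.3 to 51.6 TPM of Foxp3 without beads and 88.6 to 106 TPM with them. Of 8 Treg identity markers 4 rose in DOCK8-deficient cells, and their summed TPM went from 337 to 523 up to 1355 and 1467.

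Receptors that activated Treg cells display rose strongly. Tnfrsf4, which encodes OX40 (chr4:156013843-156016612, plus strand), went from 24.3 to 75.6 TPM (median 55.6) to 1486 and 1357 TPM, a log2 difference of 4.90 ± 0.43 (adjusted p = 2.71e-05). Tnfrsf18, encoding GITR, was at 35.9 to 72.5 TPM (median 51.1) and then at 605 and 696 TPM (3.65 ± 0.33, adjusted p = 3.63e-05). Tnfrsf9, encoding 4-1BB, went from 5.06 to 13.9 TPM (median 6.72) to 115 and 118 TPM (3.72 ± 0.42, adjusted p = 0.000144). In none of these did the groups overlap. Of 18 tested members of the costimulatory list 9 rose and none fell, with a median of 1.74 (1.33 scaled), and of 39 members of the Treg signature 23 rose and 1, Nrp1, fell (median 2.03, scaled 1.55). Without bead library 4 the numbers that rose were 4 and 15, and without bead library 5 they were 5 and 11.

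Coinhibitory receptors and ligands moved the same way. Ctla4, whose product removes CD80 and CD86 from antigen-presenting cells, was at 19.9 to 51.6 TPM (median 23.9) and at 197 and 211 TPM with beads (2.93 ± 0.35, adjusted p = 0.000201). Cd200, a ligand that quiets myeloid cells, went from 11.7 to 46.4 TPM (median 25.5) to 171 and 176 TPM (2.80 ± 0.44, adjusted p = 0.00124). Lag3, an MHC class II receptor, went from 0.479 to 5.37 TPM (median 1.43) to 34.0 and 33.0 TPM (3.77 ± 0.61, adjusted p = 0.00147). Bead values of all 3 genes lay above every unstimulated value. Pdcd1, which encodes PD-1, rose from 2.26 to 16.2 TPM (median 5.73) to 41.5 and 40.0 TPM (2.63 ± 0.55, adjusted p = 0.00773), a call lost without bead library 4 (adjusted p = 0.0954) or 5 (0.110). Of 13 tested members of the coinhibitory list 6 rose and none fell, and among those that rose Cd200, Cd274 and Pdcd1lg2 encode ligands. Ctla4 is not in this list and is counted in the costimulatory list and the Treg signature. Fewer members were called with either bead library left out, where the list median was 1.49 without bead library 4 and 1.51 without bead library 5.

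Transcription factors and feedback regulators downstream of the T cell receptor followed. Irf4 (chr13:30749226-30766976, plus strand), the factor that scales effector programmes with receptor signal strength, went from 0.540 to 2.16 TPM (median 1.38) to 86.3 and 73.1 TPM (5.16 ± 0.41, adjusted p = 2.26e-05). Nr4a1, an orphan receptor induced within hours of receptor engagement, went from 0.659 to 5.71 TPM (median 2.14) to 118 and 85.1 TPM (4.97 ± 0.55, adjusted p = 0.000124). Junb, an AP-1 subunit, went from 11.7 to 31.9 TPM (median 14.1) to 134 and 155 TPM (3.13 ± 0.38, adjusted p = 0.000222). The groups were separate for each of them. Of 33 tested T cell receptor-induced factors 15 rose and none fell (median 1.34, scaled 0.87), a number that was 8 without bead library 4 and 9 without bead library 5.

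Some genes that restrain signalling rose as well. Nfkbia, which encodes the NF-kB inhibitor IkBa and is itself an NF-kB target, was at 61.2 to 99.2 TPM (median 70.2) and at 373 and 367 TPM with beads (2.30 ± 0.33, adjusted p = 0.000619). Dusp4, a nuclear ERK phosphatase, went from 0 to 2.27 TPM (median 1.21) to 27.3 and 23.6 TPM (3.73 ± 0.47, adjusted p = 0.000261). Ptpn6, encoding the phosphatase SHP-1, went from 11.1 to 26.6 TPM (median 18.0) to 188 and 181 TPM (3.33 ± 0.34, adjusted p = 6.76e-05). Every bead value of these genes was above the unstimulated range. Of 14 tested ERK phosphatase and Sprouty genes 7 rose, and of 19 NF-kB genes 6 rose, with none lower in either list. The NF-kB share, 31.6%, was near the 29.2% of tested genes of at least 20 TPM that rose, and above the 5.95% of all tested genes. Without bead library 4 those numbers were 3 and 2, and without bead library 5 they were 3 and 3. The promoter window of Nfkbia, most of it upstream of the start, is shown because the gene is a textbook NF-kB target. RefSeq places it at chr12:55492598-55492897 (GRCm38.p6, minus strand), and the match to the kappa B motif (GGGA, any base, TTTCC), searched on both strands, is in capitals:

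Nfkbia: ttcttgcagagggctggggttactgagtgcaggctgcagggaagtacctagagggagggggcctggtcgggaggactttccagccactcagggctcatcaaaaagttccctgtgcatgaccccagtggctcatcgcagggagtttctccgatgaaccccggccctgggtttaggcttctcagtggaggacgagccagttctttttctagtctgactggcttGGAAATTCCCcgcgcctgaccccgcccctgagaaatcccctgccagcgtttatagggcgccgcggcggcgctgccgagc

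Several chemokine and chemokine receptor genes rose from low levels. Ccl20 (chr1:83116766-83119167, plus strand), a ligand of CCR6, was at 0 in most unstimulated libraries, with a highest value of 2.87 TPM, and at 52.2 and 59.4 TPM with beads (5.32 ± 0.60, adjusted p = 0.000133). Ccr8, a receptor of tissue and tumour Treg cells, went from 0 to 10.1 TPM (median 1.95) to 140 and 126 TPM (5.54 ± 0.83, adjusted p = 0.000895). Ccl1, the ligand of CCR8, went from 0 to 8.77 TPM (median 3.02) to 107 and 118 TPM (5.06 ± 0.83, adjusted p = 0.00162). Ligand and receptor were thus both far above their unstimulated ranges. Of 11 chemokines 3 rose (Ccl20, Ccl1 and Ccl4), and of 14 chemokine receptors 3 rose (Ccr8, Ccr6 and Ccr4). The Ccl4 call was lost after scaling to abundant genes (limma adjusted p = 0.0635). Those shares, 27.3% of chemokines and 21.4% of receptors, were not above the 29.2% of tested genes of at least 20 TPM that rose. They were above the 5.95% of all tested genes. The receptor list had a median of -0.25. Without bead library 4 the numbers were 3 and 2, and without bead library 5 they were 2 and 2.

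Among cytokine genes a minority rose. Tnf, an inflammatory cytokine, went from 0 to 5.11 TPM (median 0.768) to 41.1 and 49.0 TPM (4.52 ± 0.65, adjusted p = 0.000728). Il10, a suppressive cytokine of Treg cells, was at 0 to 2.31 TPM and then at 37.1 and 19.4 TPM (4.20 ± 0.65, adjusted p = 0.00121). Il2, which Foxp3 represses and conventional T cells secrete, went from 0 to 3.12 TPM to 6.85 and 46.7 TPM, so bead library 5 held several times the level of bead library 4, and the call (3.38, adjusted p = 0.00758) was lost without library 5 (adjusted p = 0.267). Of 25 tested cytokines 7 rose and none fell. That 28% was near the 29.2% of tested genes of at least 20 TPM and above the 5.95% of all tested genes. The list median of 0.69 turned to -0.13 when scaled to named protein-coding genes. The number that rose was 4 without bead library 4 and 2 without bead library 5.

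Several genes of the interleukin-2 axis were among the higher ones. Il2ra (chr2:11642807-11693193, plus strand), the chain that makes the receptor high in affinity, went from 5.76 to 16.4 TPM (median 10.5) to 97.1 and 139.6 TPM (3.35 ± 0.40, adjusted p = 0.000205). Cish, a STAT5 target that damps cytokine and T cell receptor signals, went from 2.32 to 9.96 TPM (median 3.55) to 80.9 and 239 TPM (4.68 ± 0.58, adjusted p = 0.000243). Il2rb, the signalling chain shared with the interleukin-15 receptor, went from 9.59 to 48.6 TPM (median 21.0) to 129 and 123 TPM (2.51 ± 0.47, adjusted p = 0.0044). None of these overlapped between groups, but the Il2rb call was lost without bead library 4 (adjusted p = 0.0693) or 5 (0.0778). Of 23 tested STAT5-induced genes 13 rose and none fell (median 2.08, scaled 1.61). Among them Bcl2l1, which encodes the survival protein BCL-XL, went from 1.28 to 9.68 TPM to 76.0 and 52.6 TPM (3.85 ± 0.60, adjusted p = 0.00121). Of 18 receptor, JAK and STAT genes 7 rose (38.9%, against 29.2% of tested genes of at least 20 TPM) and 1 fell. The median of this list, 0.56, was below the 0.82 of tested genes of at least 20 TPM. It was -0.45 when scaled to named protein-coding genes. The numbers that rose in these lists were 8 and 2 without bead library 4, and 7 and 3 without bead library 5.

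Myc (chr15:61985391-61990374, plus strand), the transcription factor that raises growth genes, went from 1.57 to 7.85 TPM (median 3.80) to 128 and 158 TPM (4.88 ± 0.46, adjusted p = 4.23e-05). No unstimulated library came near the Myc levels with beads. In its dimer network 25% of tested members were called higher, near the 29.2% of tested genes of at least 20 TPM. Over all tested genes the share was 5.95%. Of the 12 tested genes of its dimer network 3 rose, with a median of 0.28 that was -0.35 when scaled to named protein-coding genes, and 1 rose with either bead library left out.

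**Figure D3:**
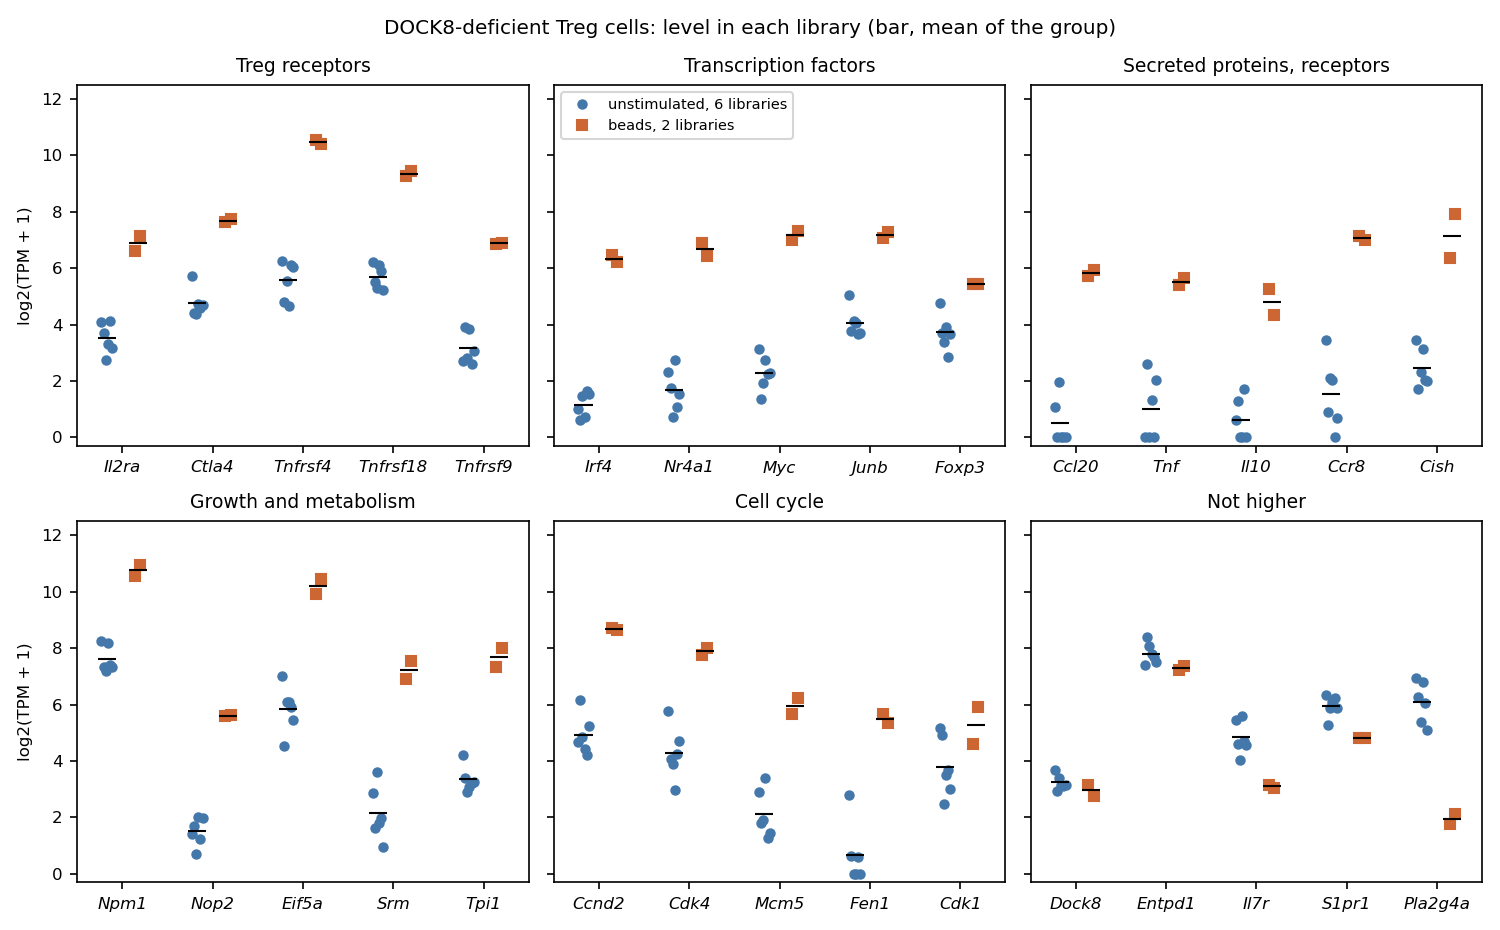
Level of 30 named genes, log2(TPM + 1), in each unstimulated (blue circles, 6) and bead (orange squares, 2) library of DOCK8-deficient cells, with a bar at the mean of each group. Bead squares lie above all unstimulated circles for every gene in the first 4 panels, overlap them for Cdk1 in the fifth, and lie below them for Entpd1, Il7r, S1pr1 and Pla2g4a in the last.

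Genes that build ribosomes had the highest median of all lists as deposited, while chaperones were higher in the replicate block (2.77 against 2.74) and without bead library 4 (2.801 against 2.798). Of 46 tested ribosome biogenesis genes 36 rose and none fell, with a median of 2.74 (2.29 scaled, 1.65 scaled to named protein-coding genes). In 41 of the 46 both bead libraries exceeded every unstimulated one, against 42.8% of tested genes of at least 20 TPM. Npm1 (chr11:33152287-33163206, minus strand), the nucleolar chaperone nucleophosmin, went from 143 to 306 TPM (median 165) to 1494 and 1978 TPM (3.13 ± 0.33, adjusted p = 8.82e-05). Nop2 (chr6:125131909-125144753, plus strand), which methylates 28S rRNA, went from 0.624 to 3.09 TPM (median 1.97) to 46.9 and 48.4 TPM (4.09 ± 0.40, adjusted p = 6.39e-05). Nhp2, a core protein of the box H/ACA particles that pseudouridylate rRNA, went from 5.17 to 14.3 TPM (median 9.87) to 202 and 291 TPM (4.55 ± 0.37, adjusted p = 2.26e-05). The bead values were many times the highest unstimulated value in each. Npm1 has processed pseudogenes, so its share of reads is less certain. Leaving out bead library 4 left 23 genes of the list higher, and leaving out bead library 5 left 18.

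MYC and its partner MAX bind the E-box CACGTG, which reads the same on both strands, and Nop2 is shown because it combines a large rise with this motif. Its window lies at chr6:125131633-125131932 (RefSeq, GRCm38.p6, plus strand), and the capitals mark the E-box:

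Nop2: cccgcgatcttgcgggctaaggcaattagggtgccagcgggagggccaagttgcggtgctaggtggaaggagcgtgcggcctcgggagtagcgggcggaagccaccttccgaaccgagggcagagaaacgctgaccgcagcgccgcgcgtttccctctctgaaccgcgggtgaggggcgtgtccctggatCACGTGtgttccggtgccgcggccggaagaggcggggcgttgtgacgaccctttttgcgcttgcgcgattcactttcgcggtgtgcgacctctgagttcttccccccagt

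The translation apparatus rose with it. Of 61 cytosolic ribosomal protein genes 55 rose and none fell (median 2.00, scaled 1.52), and their summed level went from 15900 to 40680 TPM up to 76470 and 91080 TPM. Rpl10a, of the large subunit, went from 172 to 284 TPM (median 219) to 1058 and 1237 TPM (2.36 ± 0.26, adjusted p = 0.000107). Eif5a, the hypusinated factor that relieves stalled ribosomes, went from 22.1 to 129 TPM (median 62.8) to 959 and 1411 TPM (4.34 ± 0.49, adjusted p = 0.000129). The groups were separate for both, though ribosomal protein genes and Eif5a have processed copies that can share reads. Of 33 translation factors 24 rose (median 1.97), and of 20 aminoacyl-tRNA synthetases 15 rose (median 1.87), with none lower. Kars, the lysyl-tRNA synthetase, went from 10.8 to 26.4 TPM to 109 and 134 TPM (2.93 ± 0.35). Without bead library 4 the numbers that rose were 18 ribosomal proteins, 13 factors and 5 synthetases, and without bead library 5 they were 8, 7 and 2.

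Protein folding and disposal genes rose too. Hsp90aa1, a cytosolic chaperone, went from 14.9 to 33.7 TPM (median 24.5) to 382 and 481 TPM (4.12 ± 0.36, adjusted p = 2.57e-05). Hspa5, the endoplasmic reticulum chaperone BiP, went from 14.5 to 36.3 TPM (median 24.5) to 210 and 249 TPM (3.22 ± 0.34). Psmc5, an ATPase subunit of the proteasome, went from 11.0 to 23.2 TPM (median 20.6) to 145 and 164 TPM (2.97 ± 0.38, adjusted p = 0.000306). All 3 were above the unstimulated range in both bead libraries. Of 24 chaperones 21 rose, of 33 proteasome subunits 31 rose, and of 24 unfolded protein response and folding genes 15 rose, with none lower and medians of 2.56, 2.30 and 1.76. Those numbers were 17, 20 and 9 without bead library 4, and 14, 10 and 7 without bead library 5.

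**Figure D4:**
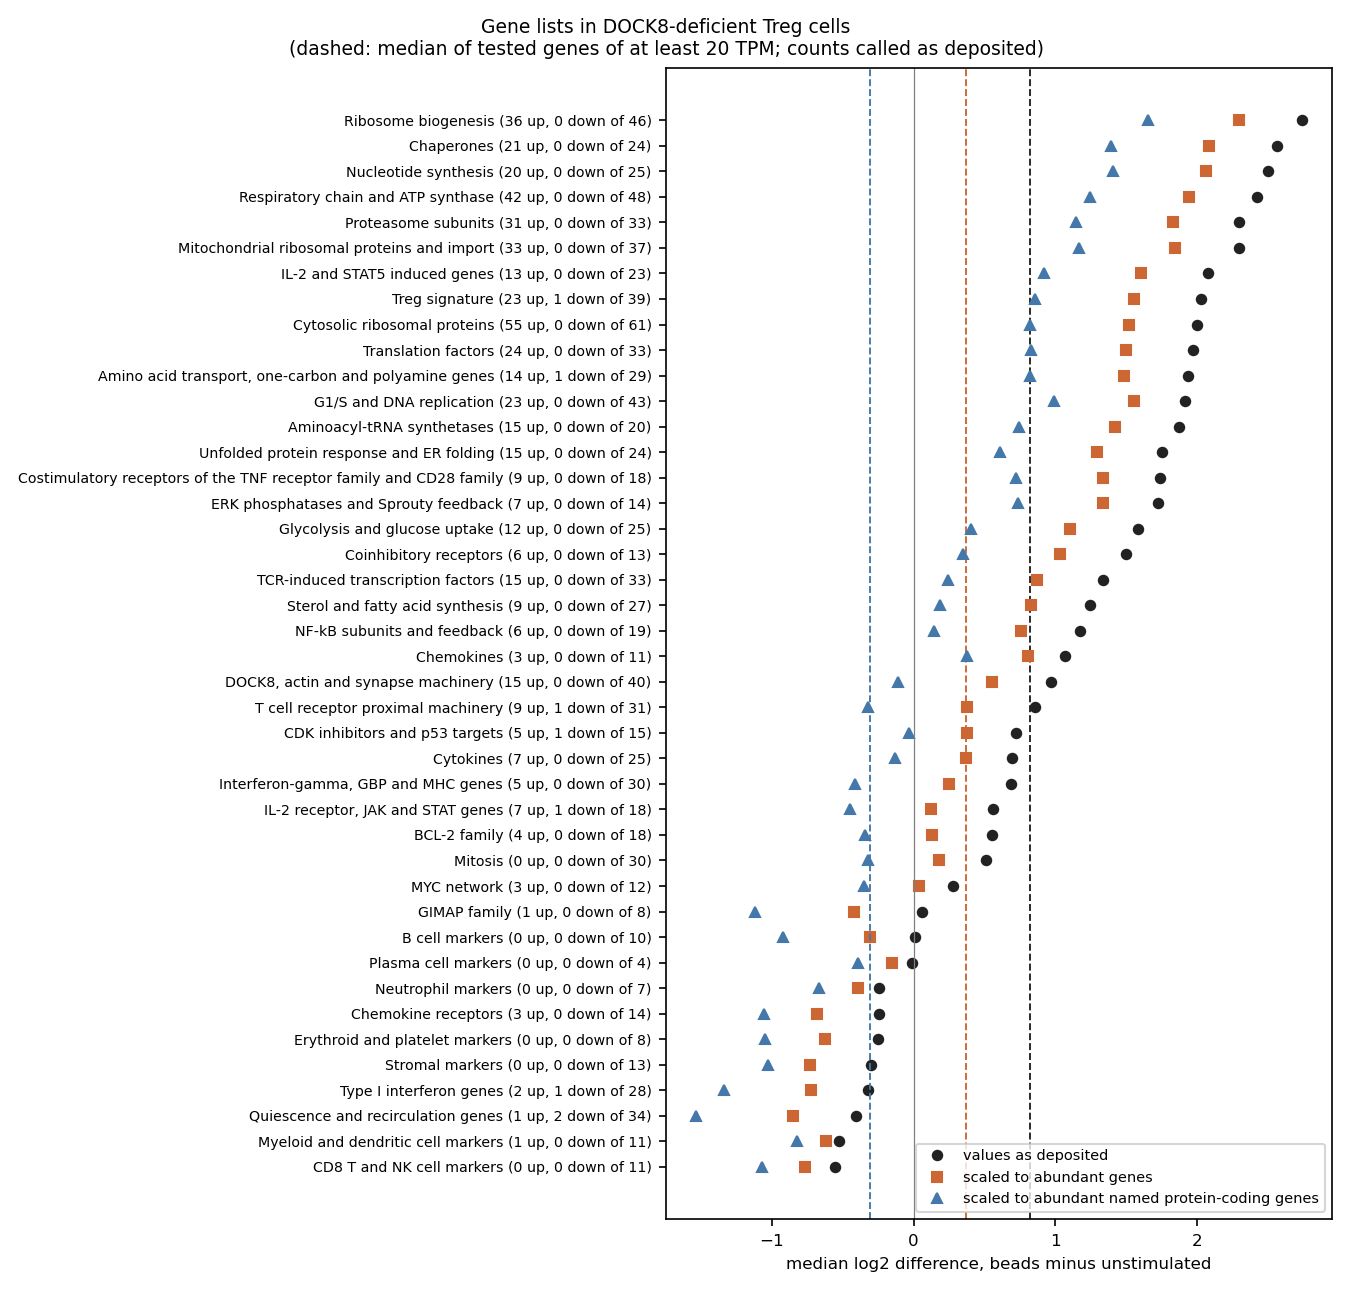
Median log2 difference, beads minus unstimulated, of each gene list in DOCK8-deficient cells as deposited (black circles), scaled to abundant genes (orange squares) and scaled to abundant named protein-coding genes (blue triangles). Dashed lines mark the medians of genes of at least 20 TPM (0.82, 0.37 and -0.31), and ribosome biogenesis lies highest at 2.74, 2.29 and 1.65.

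Glycolysis genes moved at several steps. Tpi1, triosephosphate isomerase, went from 6.46 to 17.8 TPM (median 8.48) to 160 and 258 TPM (4.32 ± 0.45, adjusted p = 8.69e-05). Ldha, which makes lactate, went from 71.4 to 179 TPM (median 101) to 740 and 1021 TPM (2.97 ± 0.36, adjusted p = 0.000201). Pkm, pyruvate kinase, went from 26.0 to 67.7 TPM (median 48.5) to 367 and 385 TPM (3.01 ± 0.38). Their groups did not overlap, although Tpi1, like Gapdh, has pseudogenes. Pgk1 went from 0 to 13.7 TPM to 97.8 and 139 TPM (4.96 ± 0.91, adjusted p = 0.00348), a call lost without bead library 5 (adjusted p = 0.085). Of 25 tested glycolysis and glucose uptake genes 12 rose and none fell (median 1.58, scaled 1.10), and 9 rose without bead library 4 and 7 without bead library 5.

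Amino acid, one-carbon and polyamine genes supply precursors for growth. Mthfd1, a folate enzyme, went from 0.476 to 3.83 TPM (median 0.948) to 34.6 and 40.9 TPM (4.15 ± 0.42, adjusted p = 6.76e-05). Phgdh, which opens serine synthesis, went from 7.90 to 20.8 TPM (median 11.5) to 169 and 229 TPM (3.88 ± 0.44). Srm, spermidine synthase, went from 0.917 to 11.1 TPM (median 2.76) to 120 and 186 TPM (5.09 ± 0.60, adjusted p = 0.000201). Each stood clear of its unstimulated range. Of 29 tested members 14 rose and 1 fell (median 1.94), with 8 higher without bead library 4 and 6 without bead library 5.

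Nucleotide synthesis genes rose in 20 of 25 cases with none lower (median 2.51, scaled 2.06). Nme1 (chr11:93956979-93968521, minus strand), a nucleoside diphosphate kinase, went from 1.01 to 30.3 TPM (median 6.82) to 363 and 422 TPM (5.70 ± 0.77, adjusted p = 0.00043). Nme2, its neighbour and paralog, went from 7.28 to 26.5 TPM to 386 and 531 TPM (4.76 ± 0.48, adjusted p = 6.76e-05). Reads that fit either gene or their readthrough transcript cannot be assigned with certainty, so the split between them is open to error. Rrm1, the large subunit of ribonucleotide reductase, went from 1.97 to 4.58 TPM to 25.8 and 30.6 TPM (2.91 ± 0.39). Leaving out bead library 4 left 7 members of the list higher, and leaving out bead library 5 left 5. Nme1 is shown because it had the largest rise among the genes of these pathways that are named here, with 2 overlapping windows at chr11:93968223-93968522 and chr11:93967976-93968275 (RefSeq, GRCm38.p6, minus strand). Capitals mark the E-box CACGTG and, near the start of the first window, the AP-1 motif TGANTCA:

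Nme1, first window: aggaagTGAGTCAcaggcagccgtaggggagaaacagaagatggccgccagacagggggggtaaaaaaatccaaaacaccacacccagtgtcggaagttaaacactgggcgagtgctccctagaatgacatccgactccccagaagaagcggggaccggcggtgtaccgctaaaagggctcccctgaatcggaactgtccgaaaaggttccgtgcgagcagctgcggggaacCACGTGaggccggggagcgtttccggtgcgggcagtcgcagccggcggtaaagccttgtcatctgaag

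Nme1, second window: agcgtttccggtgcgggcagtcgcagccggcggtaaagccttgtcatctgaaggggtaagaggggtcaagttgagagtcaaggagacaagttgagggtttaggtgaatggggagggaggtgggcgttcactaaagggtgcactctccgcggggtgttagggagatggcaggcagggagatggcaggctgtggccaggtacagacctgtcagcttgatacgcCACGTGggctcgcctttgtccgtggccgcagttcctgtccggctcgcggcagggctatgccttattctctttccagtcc

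Mitochondrial genes were among the most uniform. Of 48 nuclear respiratory chain and ATP synthase genes 42 rose and none fell (median 2.43, scaled 1.95), and of 37 mitochondrial ribosome and import genes 33 rose and none fell (median 2.29, scaled 1.84). Atp5b, the catalytic beta subunit of ATP synthase, went from 83.2 to 170 TPM (median 96.7) to 597 and 725 TPM (2.56 ± 0.31). Mrpl17, of the mitochondrial large ribosomal subunit, went from 3.23 to 11.2 TPM (median 5.71) to 125 and 172 TPM (4.42 ± 0.58, adjusted p = 0.000367). Neither overlapped between groups. The numbers that rose were 24 and 14 without bead library 4, and 16 and 6 without bead library 5. Of 27 sterol and fatty acid genes 9 rose as deposited (33.3%, near the 29.2% of tested genes of at least 20 TPM, median 1.24), 4 after scaling, 0 after scaling to named protein-coding genes and 0 with either bead library left out. Hmgcs1, which makes the mevalonate precursor, went from 1.89 to 6.57 TPM (median 5.09) to 19.9 and 21.3 TPM (1.93 ± 0.38, adjusted p = 0.00583, and 0.0745 and 0.109 without bead library 4 and 5).

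Many genes of cell cycle entry rose. Ccnd2, the D-type cyclin that lymphocytes raise first, went from 17.6 to 70.4 TPM (median 26.3) to 417 and 397 TPM (3.74 ± 0.49, adjusted p = 0.000329). Cdk4 (chr10:127063534-127067920, plus strand), its kinase partner, went from 6.85 to 52.98 TPM (median 16.9) to 217 and 253 TPM (3.60 ± 0.53, adjusted p = 0.000819). Fen1, the flap endonuclease of lagging-strand synthesis, went from 0 to 5.87 TPM (median 0.262) to 49.6 and 39.7 TPM (4.83 ± 0.61, adjusted p = 0.000261). Those 3 genes separated the groups fully. Of 43 tested G1/S and replication genes 23 rose and none fell (median 1.92, scaled 1.55), with 9 higher without bead library 4 and 5 without bead library 5.

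None of 30 tested mitosis genes was called by limma in either direction as deposited, while 7 had a higher and 1 a lower level at an unadjusted p under 0.05. Their median was 0.51 (0.18 scaled, and -0.33 scaled to named protein-coding genes, where 3 were called lower), and 9 were called higher when scaled to genes T cells do not use. Cdk1, the mitotic kinase, stood at 4.52 to 34.7 TPM (median 11.0) and at 23.3 and 59.95 TPM with beads (1.48 ± 0.62, adjusted p = 0.178). Ube2c, a ubiquitin enzyme of anaphase, stood at 12.3 to 29.5 TPM and at 19.9 and 76.0 TPM (0.90 ± 0.52, adjusted p = 0.344), a difference of -0.04 without bead library 5 and -0.24 when scaled to named protein-coding genes. In both genes bead library 4 fell within the unstimulated range and bead library 5 above it. The difference between the G1/S and mitosis lists was not tested. Cdk4 is shown because its window, chr10:127063285-127063584 (RefSeq, GRCm38.p6, plus strand), holds 4 E-boxes, here in capitals:

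Cdk4: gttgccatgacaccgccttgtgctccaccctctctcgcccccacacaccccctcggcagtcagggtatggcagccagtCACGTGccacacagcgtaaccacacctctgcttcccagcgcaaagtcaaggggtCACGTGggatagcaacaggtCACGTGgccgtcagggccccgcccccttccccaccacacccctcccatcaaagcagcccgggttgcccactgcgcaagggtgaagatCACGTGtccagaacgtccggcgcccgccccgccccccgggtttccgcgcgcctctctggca

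Motifs were counted as a description of letters, not of sites. Over the whole RefSeq table the share is of windows. For gene sets it is of genes with the motif in at least 1 window, which is not the same measure. CACGTG occurred in 7.15% of all 32851 windows in the RefSeq table. It occurred in 9.44% of tested genes with a window, 13.1% of those of at least 20 TPM and 15% of those called higher (1362 of 1785 had a window). For genes called lower, of which 272 of 646 had a window, the share was 7.72%. The kappa B motif occurred in 0.411% of all windows, 0.531% of tested genes with a window and 0.514% of those called higher. TGANTCA, which also reads the same on both strands, occurred in 7.81% of all windows and 8.13% of tested genes with a window. It occurred in 5.29% of those called higher and 9.93% of those called lower. The set of at least 20 TPM contains most of the genes called higher, so these shares are not independent.

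Regulators of arrest and death rose about as often as other well expressed genes. Among CDK inhibitor and p53 target genes 33.3% were called higher, and among BCL-2 family genes 22.2%. The share of tested genes of at least 20 TPM was 29.2%, and that of all tested genes was 5.95%. Trp53, the tumour suppressor p53, went from 20.2 to 40.8 TPM (median 28.1) to 140 and 136 TPM (2.24 ± 0.33, adjusted p = 0.000748). Cdkn1a, the p53-induced CDK inhibitor p21, went from 0 to 7.17 TPM (median 2.42) to 60.6 and 49.0 TPM (4.24 ± 0.91, adjusted p = 0.00935), and its call was lost without bead library 4 (adjusted p = 0.116) or 5 (0.111). Both genes separated the groups. Of 15 CDK inhibitor and p53 target genes 5 rose and 1 fell, with a median of 0.72 that was -0.04 when scaled to named protein-coding genes, and 1 rose with either bead library left out. Of 18 BCL-2 family genes 4 rose and none fell, with a median of 0.55 that was -0.34 under the same scaling, and 2 rose without bead library 4 and 1 without bead library 5.

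Genes of resting and recirculating T cells showed few called changes as deposited. Il7r, the receptor for the survival cytokine interleukin-7, fell from 15.5 to 47.2 TPM (median 24.5) to 7.83 and 7.31 TPM (-1.74 ± 0.41, adjusted p = 0.0157). S1pr1, the receptor that lets T cells leave lymph nodes, fell from 37.5 to 79.2 TPM (median 62.5) to 27.3 TPM in each bead library (-1.12 ± 0.33, adjusted p = 0.0484). Bead values of both were below every unstimulated value. Neither call survived without bead library 4 (adjusted p = 0.131 and 0.271) or 5 (0.173 and 0.293), while both differences were larger after scaling (-2.18 and -1.59). The S1pr1 call was lost on leaving out any of 12 single libraries, all but WT unstimulated libraries 2 and 3 and unstimulated DOCK8-deficient library 1. Id3, an inhibitor of E proteins, rose from 21.5 to 46.7 TPM to 131 and 73.3 TPM (1.69 ± 0.42, adjusted p = 0.0214), again lost without bead library 4 (adjusted p = 0.309) or 5 (0.086). Of 34 tested members 1 rose and 2 fell as deposited, 1 rose and 14 fell after scaling and 22 fell after scaling to named protein-coding genes. Of the 5262 tested genes of at least 20 TPM, 807 and 1471 fell after those scalings. The list median was -0.41 as deposited, -0.85 scaled and 0.40 when scaled to genes T cells do not use, so its sign rests on the scaling. Relative to the median of tested genes of at least 20 TPM it was lower in each, by -1.23, -1.23 and -1.34.

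Actin and synapse genes, the machinery in which DOCK8 acts, rose in 15 of 40 cases (37.5%, against 29.2% of tested genes of at least 20 TPM) and fell in none. After scaling the shares were 22.5% and 21.8%, so the list was near the share of all well expressed genes. Pfn1, profilin, which feeds actin monomers to growing filaments, went from 172 to 402 TPM (median 222) to 1552 and 1490 TPM (2.65 ± 0.34, adjusted p = 0.000306). Cfl1, cofilin, which severs filaments, went from 68 to 164 TPM (median 104) to 591 and 503 TPM (2.37 ± 0.35). Actg1, cytoplasmic gamma actin, went from 105 to 316 TPM (median 187) to 944 and 938 TPM (2.31 ± 0.36). Those 3 abundant genes separated the groups, whereas the list median was 0.97 as deposited, 0.55 scaled and -0.11 when scaled to named protein-coding genes. Of 31 genes of proximal T cell receptor signalling 9 rose (29.0%, against the 29.2% above) and 1 fell, with a median of 0.86 that was -0.32 under the same scaling. Without bead library 4 the numbers that rose were 4 and 1, and without bead library 5 they were 3 and 3.

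Interferon genes and GIMAP GTPases gave few calls as deposited. Of 28 type I interferon genes 2 rose (7.14%, Bst2 and Ifi35) and 1 fell (Ifit3), with a median of -0.32. After scaling to abundant genes 1 of them rose and 6 fell. Of 30 interferon-gamma, GBP and MHC genes 5 rose (16.7%) and none fell, with a median of 0.69 that was -0.41 when scaled to named protein-coding genes. Under that scaling 10 type I, 4 interferon-gamma, GBP and MHC and 6 GIMAP genes fell. As deposited, 29.2% of tested genes of at least 20 TPM and 5.95% of all tested genes rose. Of 8 GIMAP genes 1 rose, Gimap5. None of these rises was called with either bead library left out.

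Some genes were listed at 0 in a whole group. Lsm7, a component of the Lsm rings that bind U6 snRNA and decaying mRNA, was listed at 0 in all 6 unstimulated libraries and at 65.9 and 57.1 TPM with beads (adjusted p = 0.00238), a call lost without bead library 5 (adjusted p = 0.0512). Apol7e (chr15:77698857-77719285, plus strand), an apolipoprotein L family gene, was at 10.6 to 17.5 TPM (median 14.3) without beads and listed at 0 in both bead libraries (adjusted p = 2.26e-05). No fold is given for them, since 1 group is at 0. Such a value can also be a failed estimate, and the genes listed in the unstimulated and bead tables were not the same.

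Named protein-coding genes with large falls were few. Pla2g4a, cytosolic phospholipase A2, which frees arachidonic acid, fell from 33.2 to 120 TPM (median 70.8) to 2.43 and 3.39 TPM (-4.13 ± 0.73, adjusted p = 0.00285). Tnnt1, a troponin of slow muscle, fell from 37.3 to 90.9 TPM (median 60.9) to 2.86 and 2.68 TPM (-4.01 ± 0.79, adjusted p = 0.00555). Ptpro, a receptor tyrosine phosphatase, fell from 4.09 to 23.9 TPM (median 18.0) to 0.457 and 0.841 TPM (-3.11 ± 0.66, adjusted p = 0.00844). All bead values lay below the unstimulated ones, but without bead library 4 the adjusted p values were 0.0567, 0.0722 and 0.116, and without bead library 5 they were 0.0512, 0.0945 and 0.0965. Plekha3, a lipid-binding protein of the Golgi, went from 20.8 to 103 TPM to 11.2 and 2.68 TPM (-2.95 ± 0.56, adjusted p = 0.00434), a call lost without bead library 5 (adjusted p = 0.162). In all, 24 genes fell by more than 3 on the log2 scale and 294 rose by more than 3.

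Markers of other cells gave a single call. Over 7 lists (B, plasma, CD8 T and NK, myeloid, neutrophil, erythroid and stromal cells) 64 markers were tested and 1 was called, Cst3, a protease inhibitor abundant in dendritic cells, at 9.73 to 40.0 TPM without beads and 74.2 and 56.4 TPM with them (1.56 ± 0.46, adjusted p = 0.0498, and not called after scaling or with either bead library left out). Summed B cell markers were 28.6 to 73.5 TPM without beads and 43.5 and 44.3 TPM with them. Summed CD8 T and NK markers were 38.2 to 81.9 TPM, then 36.9 and 52.2 TPM. Myeloid markers summed to 28.7 to 74.7 TPM, then 83.7 and 62.7 TPM, and Cst3 made up most of the bead sums. Only 3 of the 11 tested myeloid markers had a positive difference (list median -0.52). For 5 of them both bead libraries lay below every unstimulated one, and for 1 above. The sums of the other lists with beads lay within or below their unstimulated ranges: plasma cell markers were at 19.1 and 19.0 TPM (7.17 to 22.0 without beads), neutrophil markers at 9.86 and 9.73 (3.01 to 45.9), erythroid markers at 20.9 and 15.5 (9.13 to 42.4) and stromal markers at 46.6 and 27.3 (53.9 to 113). S100a9, a neutrophil protein, was at 0 in both bead libraries. The part of other cells in the gene results was not tested. In bulk RNA, fewer cells of a type and less RNA per cell cannot be told apart.

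The same bead response in WT cells was set beside it, with no library shared between the contrasts. Of the 2431 genes called in DOCK8-deficient cells 1582 were also called in WT cells, which is 65.1% of the former and 47.0% of the 3366 WT calls, and 1581 of them moved the same way. Differences over genes of at least 20 TPM correlated at r = 0.797 between genotypes, across genes that share libraries and depth. Ribosome biogenesis genes rose in 36 of 46 cases in each genotype. Actin and synapse genes rose in 15 cases in DOCK8-deficient and 5 in WT cells, and quiescence genes fell in 2 and 17 cases. Such unequal counts are not a test. The difference of the responses had a median of 0.27 over all genes as deposited and -0.06 after scaling. Over genes of at least 20 TPM it was 0.47 and 0.002. For the actin and synapse list it was 0.72 and 0.23, and for the quiescence list 0.84 and 0.41. The part of the overall offset in the list counts was not tested.

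The difference itself was tested gene by gene in the same limma fit. A single gene of 29989 was called (0.00333%), ENSMUSG00000096252, which has no symbol. It was listed at 0 in all 6 unstimulated DOCK8-deficient libraries and at 13.9 and 13.5 TPM with beads, against 5.04 to 15.2 TPM and 4.04 to 9.64 TPM in WT cells (adjusted p = 0.0356 for the difference). The fitted size of that difference depends on the pseudocount, since 1 group is at 0, and a listed 0 can be a failed estimate. No gene was called after scaling, where 800 had an unadjusted p under 0.05, against 1247 as deposited, and the count was 0 without bead library 4. Leaving out bead library 5 left 1 call, in the other direction. Among named genes Pdcd1 rose in DOCK8-deficient cells and stood at 30.8 to 94.5 TPM without and 34.1 to 38.3 TPM with beads in WT cells (difference 3.34, adjusted p = 0.581). Ptpn4, a protein tyrosine phosphatase, went from 0.680 to 3.06 TPM to 17.3 and 17.5 TPM in DOCK8-deficient cells (difference from WT 3.51, adjusted p = 0.412), its own call being lost without bead library 5 (adjusted p = 0.0514). Tnfrsf18 (difference 1.65, adjusted p = 0.829), Id3 (2.38, adjusted p = 0.605) and Apol7e (adjusted p = 0.0759) were likewise not called. With 2 bead libraries in this genotype, a p that misses the threshold does not show that the responses were alike.

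**Figure D5:**
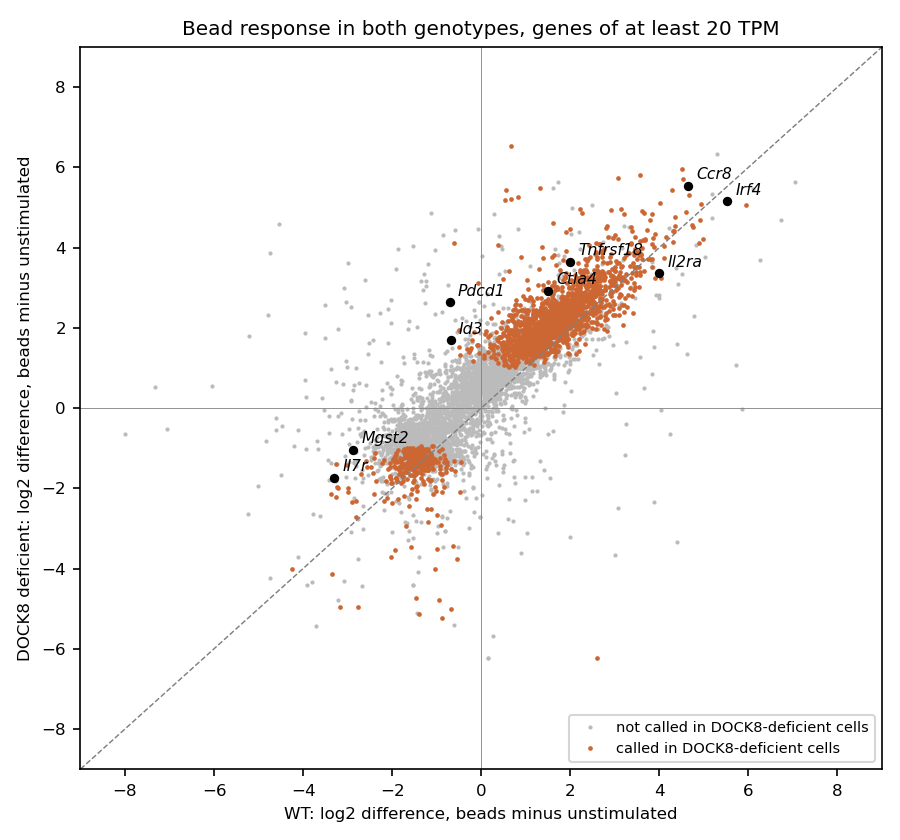
Log2 difference, beads minus unstimulated, in DOCK8-deficient cells (vertical axis) against that in WT cells (horizontal axis) for genes of at least 20 TPM, orange where called in DOCK8-deficient cells. Most called genes lie in the quadrants of equal sign (r = 0.797 over the plotted genes), with Pdcd1 and Id3 left of the vertical line.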

How the data were processed

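The deposited values are TPM per gene, 1 table per library. Per the submitters' processing notes, STAR, Salmon, DESeq2 and mm10 were named, with no versions or roles. Symbols and positions were taken from GENCODE gene models (GRCm38) by gene ID, with a symbol for 30788 of 30949 genes. The members and lists were chosen with earlier results of these data known.

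Groups came from the sample titles. Genes listed in every table that reached 1 TPM in 2 or more libraries were tested on log2(TPM + 1) with limma 3.58.1 in R 4.3.3 (trend, 1 mean per group, all 15 libraries). Benjamini-Hochberg adjustment ran over all 29989 tested genes, at 0.05, and the fit was tested on simulated data. No set test was run. Library measures were compared by exact two-sided permutation tests. Scaling divided each library by its median ratio to the geometric mean over genes of at least 50 TPM in every group. Other scalings, pseudocounts, filters, weights and left-out libraries were tried.

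Named genes were Dock8, Foxp3, Il2ra, Il2rb, Ctla4 and Entpd1, the called genes with the largest differences without overlap, up to 5 called members of each list with the smallest p, and the genes with the smallest p for the difference between genotypes, after leaving out predicted genes and pseudogenes. Text examples were picked from these. Libraries were not paired by the numbers in the titles, since neither the labels nor the design text tie a number to a mouse. Deviations of same-numbered libraries from their group means correlated at 0.050 and -0.033 in DOCK8-deficient cells. With 2 bead libraries those deviations mirror each other, so these values cannot decide whether the libraries are paired. Promoter windows came from RefSeq (GRCm38.p6), matched by symbol, and a gene missing there was looked for nowhere else.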

Additional observations from a re-analysis of the deposited data

Results flagged for a closer look

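In 5 of 95 tested sets of 6 unstimulated DOCK8-deficient libraries, 1 library stood apart by Dixon's criterion (critical value 0.625), and chance gives about 1 in 20. The library without a number held 51.6 TPM of Ctla4, against 19.9 to 25.4 TPM in the others. It also held 31.9 TPM of Junb (others 11.7 to 16.5 TPM) and 5.87 TPM of Fen1 (others 0 to 0.570 TPM). Unstimulated library 4 held 1.89 TPM of Hmgcs1, below the 4.55 to 6.57 TPM of the others. Unstimulated library 5 held 3.06 TPM of Ptpn4, above 0.680 to 1.27 TPM.

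The bead responses of ENSMUSG00000096252 differed between genotypes in the limma fit (adjusted p = 0.0356). Its fitted log2 difference of 4.33 is no fold, since all 6 unstimulated DOCK8-deficient libraries were listed at 0 and the value depends on the pseudocount.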

How the results depend on the processing

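Against 2431 genes called for the bead response, array weights gave 3961, the DOCK8-deficient libraries alone 1198, a replicate block 922, scaling to named protein-coding genes 5153, scaling to genes T cells do not use 3975, and leaving out the 4 unstimulated libraries highest in repeat-derived genes 995. The last 3 settings were chosen after seeing the data. Leaving out 1 library gave 380 to 2703. Fewer samples or residual degrees of freedom enter the fits without a bead library and with the block, and the cause of the other shifts was not tested. The difference between genotypes gave 1 call, and 0 when scaled (also to named protein-coding genes), over genes of at least 20 TPM, with a pseudocount of 5, quantile normalization or a replicate block, 2 with a minimum of 5 TPM or without repeat-derived genes, 3 with a pseudocount of 0.1, 4 without the 4 repeat-rich libraries, 5 with array weights and 0 to 6 with 1 library left out. The repeat-derived share differed by -24.3 to -18.7 points, and the scale factor by 0.285 to 0.362, with 1 library left out. With a single bead library the exact permutation test cannot go below 0.143, and the scale factor also lost p under 0.05 without unstimulated library 1, 2 or 5 (p = 0.0952 each) or 4 (p = 0.143). Scaling to genes T cells do not use turned Dock8 to 0.58 and Entpd1 to 0.47. Scaling to named protein-coding genes gave -1.32 and -1.68 for them, both called. Ube2c ran from -0.037 without bead library 5 to 1.85 without bead library 4 and was -0.24 when scaled to named protein-coding genes. None of these genes was called as deposited. Of 87 named genes called, 85 kept their call when scaled, 82 when scaled to named protein-coding genes, 72 in the replicate block, 69 without bead library 4 and 65 without bead library 5, and none reversed. The block cost the calls of Lag3 (adjusted p = 0.055), Ccl1 (0.0619), Il7r (0.151) and S1pr1 (0.146), among others. TPM keeps no depth, so counting error could not be given.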
